A study of Arabidopsis thaliana with 18 samples.

Results

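The nuclear genes that build the photosystems and their light-harvesting antennae were followed in rosettes of Arabidopsis thaliana at 3 nitrate doses and in 2 genotypes. The set held 43 of the 32744 genes counted. It comprised 14 LHCB genes for the antenna of photosystem II, 6 LHCA genes for the antenna of photosystem I, 12 PSA genes for photosystem I subunits and 11 PSB genes for photosystem II subunits. Members were matched by gene identifier, and all 43 were among the 18358 genes with enough reads to be tested.

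Both photosystems are assembled from core proteins encoded in the chloroplast and from subunits encoded in the nucleus, which are made in the cytosol and imported. LHCB and LHCA proteins bind chlorophyll and pass excitation energy to the reaction centres. Their messenger RNAs are abundant in green leaves and are known to respond to light, the circadian clock, sugars and nitrogen supply.

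The plants were wild type (WT) or carried era1, which the labels give as a T-DNA insertion knock-out. ERA1 codes for a subunit of the enzyme that adds a farnesyl lipid to target proteins. Nitrate was given to each genotype at 0, 2 or 10 mM, which made 6 groups of 3 libraries. Every plant grew on potting soil under light of 100 µmol per square metre and second, and rosettes of a single labelled growth stage were taken. The sources used here do not state the ecotype, the allele name, the day length or the hour of harvest. Whether the soil itself held nitrogen is also not stated, so 0 mM names the nitrate supplied. The 3 libraries are described as biological replicates, without a statement of how plants were pooled.

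Libraries held 4748044 to 6306900 gene counts. The ERA1 gene (AT5G40280) was counted 42 to 54 times per library in WT and 6 to 17 times in era1. The genotype label prints a different locus, AT5G66470, which had 47.0, 42.8 and 43.7 CPM in WT and 44.2, 38.4 and 40.2 CPM in era1 at 10 mM nitrate (-0.12 ± 0.13, FDR 0.514). At 0 mM it had 26.6, 22.3 and 33.1 CPM in WT and 20.3, 16.9 and 13.9 CPM in era1, without overlap, and was called lower in era1 (-0.69 ± 0.15, FDR 4.60e-04). Its interaction term at 0 against 10 mM was also called (-0.57 ± 0.20, FDR 0.0265). That interaction call was lost with scaling by library totals (-0.42). It was also lost without WT library 3 at 0 mM (-0.41), WT library 2 at 10 mM (-0.55), era1 library 3 at 0 mM (-0.44) or era1 library 1 at 10 mM (-0.51). The leaf genes RCA and RBCS1A summed to 3931 to 7820 CPM per library. At 0 mM they summed to 7212 to 7820 CPM in WT and to 4083 to 4510 CPM in era1. Of 5 root markers, LRX1, RHD6 and RSL4 had 0 counts in all 18 libraries and COBL9 at most 1. PYK10, the fifth, was counted 44 to 351 times per library (6.95 to 62.7 CPM). It was lower in era1 at 0 mM, with 20.4 to 31.5 CPM in WT and 6.95 to 14.2 CPM in era1 (-1.26 ± 0.30, FDR 0.00124). The 7 flower markers summed to 0.715 to 9.96 CPM. The part of leaf or root markers in the genotype difference at 0 mM was not tested.

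Levels are in CPM, the gene's count scaled to the size of its library with edgeR's TMM factors. Fold changes are on the log2 scale, with the standard error (SE) and the false discovery rate (FDR) of edgeR's quasi-likelihood test over the 18358 genes. A gene was called higher or lower at an FDR under 0.05. The libraries hold tags from transcript 3′ ends, so levels were compared between samples and not between genes. In whole rosettes, fewer cells of a type and less RNA per cell cannot be told apart.

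The 43 genes took their largest share of the gene counts in WT at 2 mM and their smallest in era1 at 0 mM. In WT at 2 mM the share was 9.45%, 9.25% and 9.43% in the 3 libraries. In era1 at 0 mM it was 3.96%, 4.27% and 3.66%. The other 4 groups lay between, with 6.62% to 6.72% for WT at 10 mM, 6.62% to 6.90% for WT at 0 mM, 5.95% to 6.27% for era1 at 10 mM and 7.53% to 7.76% for era1 at 2 mM. Of the 43 genes, 39 had their highest group mean in WT at 2 mM, the exceptions being LHCB4.3, LHCA5, LHCA6 and PSBS. The lowest mean lay in era1 at 0 mM for 37, and in 36 of these all 3 of its libraries lay below the other 15. Such counts were not made over all genes tested, so how common this pattern is was not tested.

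**Figure D1:**
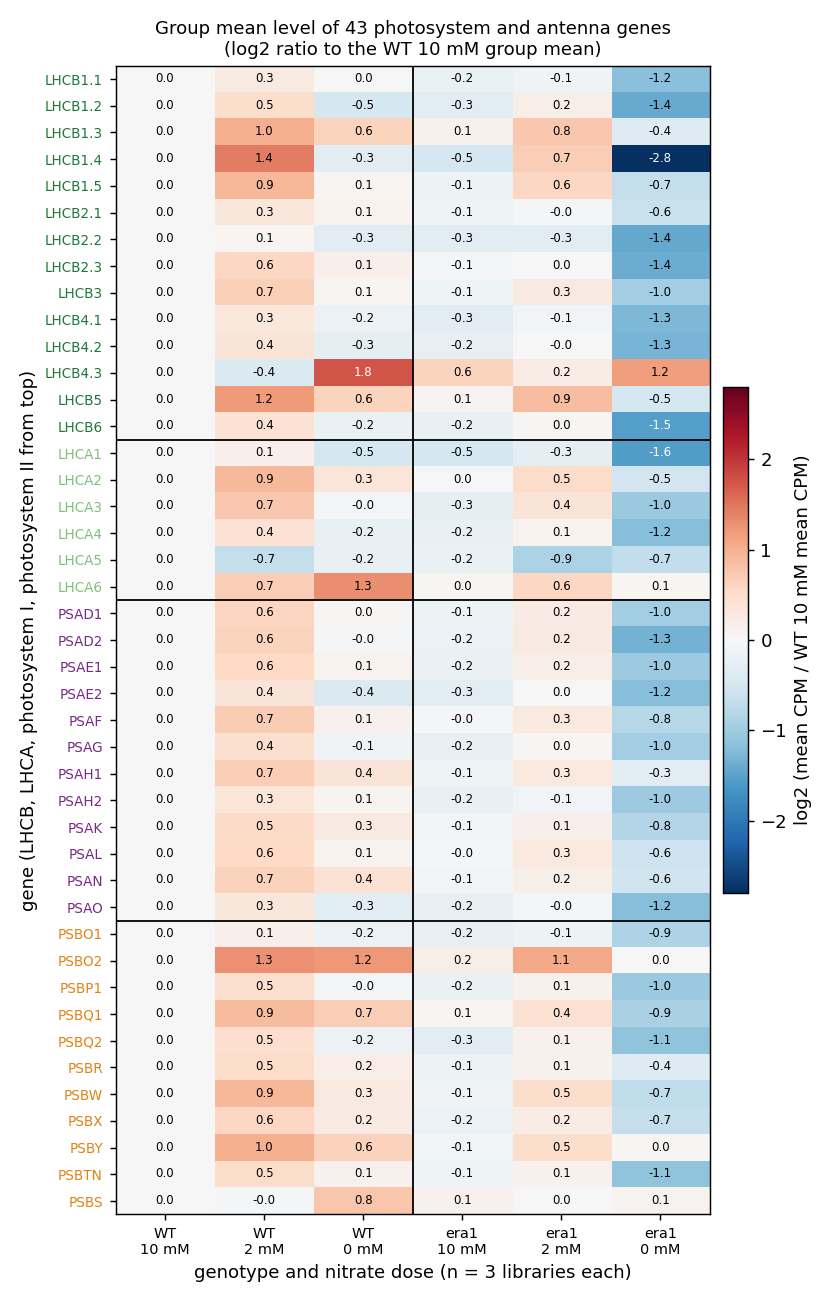
Group mean level of each of the 43 genes as the log2 ratio to its own mean in WT at 10 mM, with genes in rows by class and the 6 groups (n = 3 libraries each) in columns. The WT 2 mM column is mostly red and the era1 0 mM column mostly blue, with LHCB4.3, LHCA5, LHCA6 and PSBS among the rows that depart from this.

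The promoters of 4 genes are printed because these genes carry the contrasts reported here. LHCB1.4 (AT2G34430) had the largest genotype difference, LHCB1.5 (AT2G34420) is its divergent neighbour, LHCB4.3 (AT2G40100) moved apart from its family, and PSBQ1 (AT4G21280) had the second largest genotype difference in the response to nitrate omission. Each line holds the 250 bases before the annotated gene start, 5′ to 3′ on the gene's strand, from the RefSeq assembly TAIR10.1. The intervals are chr2:14524357-14524606 on the plus strand for LHCB1.4, chr2:14523569-14523818 on the minus strand for LHCB1.5, chr2:16745378-16745627 on the plus strand for LHCB4.3 and chr4:11334102-11334351 on the plus strand for PSBQ1. Capitals mark AAAAATCT, known as a binding site of the clock protein CCA1, and the G-box CACGTG, a binding site of bZIP and bHLH factors.
LHCB1.4: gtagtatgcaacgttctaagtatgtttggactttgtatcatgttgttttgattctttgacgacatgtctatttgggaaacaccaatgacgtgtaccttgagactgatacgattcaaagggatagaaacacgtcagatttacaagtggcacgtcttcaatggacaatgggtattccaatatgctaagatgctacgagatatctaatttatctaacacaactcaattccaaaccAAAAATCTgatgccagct
LHCB1.5: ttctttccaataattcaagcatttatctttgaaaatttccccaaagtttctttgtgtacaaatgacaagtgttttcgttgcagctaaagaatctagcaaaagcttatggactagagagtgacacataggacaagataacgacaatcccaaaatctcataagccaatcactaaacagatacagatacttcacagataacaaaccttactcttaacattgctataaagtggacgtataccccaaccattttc
LHCB4.3: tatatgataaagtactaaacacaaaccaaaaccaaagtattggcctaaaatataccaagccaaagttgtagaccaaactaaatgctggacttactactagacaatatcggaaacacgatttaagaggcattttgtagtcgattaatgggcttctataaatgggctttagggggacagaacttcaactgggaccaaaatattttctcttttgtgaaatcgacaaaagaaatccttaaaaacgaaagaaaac
PSBQ1: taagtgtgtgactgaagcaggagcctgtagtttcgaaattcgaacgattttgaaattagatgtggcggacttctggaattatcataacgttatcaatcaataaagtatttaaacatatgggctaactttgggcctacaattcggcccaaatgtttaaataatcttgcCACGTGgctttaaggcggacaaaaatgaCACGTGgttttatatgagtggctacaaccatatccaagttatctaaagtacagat

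AAAAATCT begins 18 bases before the start of LHCB1.4 and is not in the window of LHCB1.5. PSBQ1 has G-boxes that begin 83 and 55 bases before its start. The windows of LHCB1.5 and LHCB4.3 held none of the motifs searched. On both strands, AAAAATCT lay in 5 of the 43 member windows (11.6%) and in 6.69% of the 27443 windows of all protein-coding nuclear genes. Its carriers among the members were LHCB1.1, LHCB1.4, LHCA4, PSAN and PSAO. Whether members with a motif changed differently from those without was not tested. The related site AACAATCT lay in 1, that of PSAE2, against 1.83% of all windows. The evening element AAAATATCT lay in 1, that of LHCA5, against 2.36%. The G-box lay in 9 members (20.9%) against 6.49% of all windows, among them 4 antenna genes, 2 of photosystem I and 3 of photosystem II. The I-box core GATAAG lay in 9 members (20.9%) against 12.3%. These are matches of letters, and no binding was measured.

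The first comparison was WT at 2 against 10 mM nitrate, where nearly all photosystem and antenna genes rose at the lower dose. Of the 43 genes, 38 were higher and 1 was lower, against 28.8% higher and 28.3% lower of all genes tested. Their median log2 fold change was 0.53, against 0.01 for all genes.

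In the photosystem II antenna 12 of 14 genes were higher. LHCB1.4, a gene for the major trimeric antenna, had 1468, 1404 and 1508 CPM at 10 mM and 4023, 3815 and 4053 CPM at 2 mM. The doses stood far apart, and the log2 fold change was 1.44 ± 0.07 (SE; FDR 5.00e-15). LHCB5 (AT4G10340), which encodes the monomeric antenna protein CP26, went from 1255 ± 19.9 to 2875 ± 113 CPM (SD, n = 3), a log2 fold change of 1.2 ± 0.07 (FDR 1.57e-13). LHCB1.3 changed by 1.01 ± 0.07 and LHCB1.5 by 0.93 ± 0.06, and LHCB3, a further trimer subunit, by 0.66 ± 0.06. LHCB2.2 (0.06 ± 0.06, FDR 0.365) and LHCB4.3 (-0.41 ± 0.20, FDR 0.0889) were not called.

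Among the genes of the photosystem I antenna, LHCA2 changed by 0.91 ± 0.06 and LHCA3 by 0.75 ± 0.06, while LHCA1 was not called (0.15 ± 0.07, FDR 0.0649). LHCA5, which helps to join photosystem I to the chloroplast NADH dehydrogenase-like complex, went the other way. It had 261, 289.9 and 283 CPM at 10 mM and 163, 185 and 178 CPM at 2 mM, without overlap, and a log2 fold change of -0.66 ± 0.09 (FDR 4.53e-07). It was the one member called lower.

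All 12 photosystem I genes rose, by 0.32 to 0.72. The largest changes were in PSAF (0.72 ± 0.06), PSAH1 (0.69 ± 0.08) and PSAN (0.65 ± 0.07). The peripheral subunit PSAG changed by 0.45 ± 0.06, and PSAL, of the antenna docking site, by 0.55 ± 0.06. PSAF and PSAN lie on the lumenal side where plastocyanin docks, and PSAH belongs to the docking site of the mobile antenna. Of the photosystem II genes 10 of 11 rose, with PSBW, a small membrane subunit, at 0.94 ± 0.06 and PSBQ1, an extrinsic protein of the oxygen-evolving side, at 0.88 ± 0.09. PSBO1, the main manganese-stabilising protein, changed least of these (0.14 ± 0.05, FDR 0.0211). It was not called with library totals (0.07) or with no filter (0.12). Nor was it called without WT library 1 at 10 mM (0.14), library 3 at 10 mM (0.12) or library 3 at 2 mM (0.12). PSBS, the sensor of thermal energy dissipation, was not called (-0.04 ± 0.08, FDR 0.656).

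The second WT library at 2 mM stood apart for 2 photosystem II genes. PSBO2, an isoform of the manganese-stabilising protein, had 168, 216 and 230.1 CPM at 10 mM and 653, 177 and 652 CPM at 2 mM. PSBY, a small subunit, had 374, 426 and 420.2 CPM at 10 mM and 1042, 402 and 972 CPM at 2 mM. In both genes that library lay within the range of the 10 mM libraries and the other two lay above it. PSBO2 changed by 1.27 ± 0.28 (FDR 4.32e-04), and without that library by 1.67 ± 0.17, FDR 1.01e-08. PSBY changed by 0.98 ± 0.21 (FDR 3.47e-04), and without it by 1.3 ± 0.14, FDR 4.01e-08. LHCA6 was also lowest there, with 134, 90.3 and 146 CPM (change 0.69 ± 0.15).

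In era1 most of the genes were also higher over the same dose step. At 2 against 10 mM 34 of 43 were higher and 1 was lower, against 25.5% higher and 26.5% lower of all genes, with a median of 0.30. LHCB1.4 again changed most, from 1049.8 ± 28.2 to 2361 ± 118 CPM (1.17 ± 0.07), and LHCA5 again was the one lower gene (-0.70 ± 0.09). The next in the photosystem II antenna were LHCB5 (0.78 ± 0.07) and LHCB1.5 (0.72 ± 0.06). In photosystem I the leading genes were PSAD2 (0.42 ± 0.07), PSAH1 (0.40 ± 0.08) and PSAD1 (0.37 ± 0.06), and in photosystem II PSBO2 (0.91 ± 0.28), PSBW (0.60 ± 0.06) and PSBY (0.58 ± 0.21). PSBY was not called with DESeq2 (0.60), or without era1 library 1 at 10 mM (0.56), library 2 at 10 mM (0.54) or library 2 at 2 mM (0.52). Of the 38 genes higher in WT, 33 were also called higher in era1, and LHCB1.1, LHCB2.1, LHCB2.3, PSAH2 and PSBO1 were not called there. Joint calls of all genes tested were not counted.

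The interaction term tested whether this dose step differed between genotypes. It was negative and called, meaning a smaller step in era1, for 14 genes, and positive and called for 0, against 8.09% and 7.70% of all genes. PSBQ1 (-0.52 ± 0.13, FDR 0.00776) and LHCB2.3 (-0.50 ± 0.14, FDR 0.0141) had the largest terms. They were followed by LHCB5 (-0.42 ± 0.09, FDR 0.00298) and PSAF (-0.42 ± 0.08, FDR 7.89e-04). The count depended on single libraries. It was 9 without WT library 1 at 10 mM, 8 without WT library 2 at 10 mM, 7 without WT library 1 at 2 mM and 9 without WT library 3 at 2 mM. It was 8 without era1 library 1 at 0 mM, 9 without era1 library 1 at 10 mM and 8 without era1 library 3 at 10 mM.

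**Figure D2:**
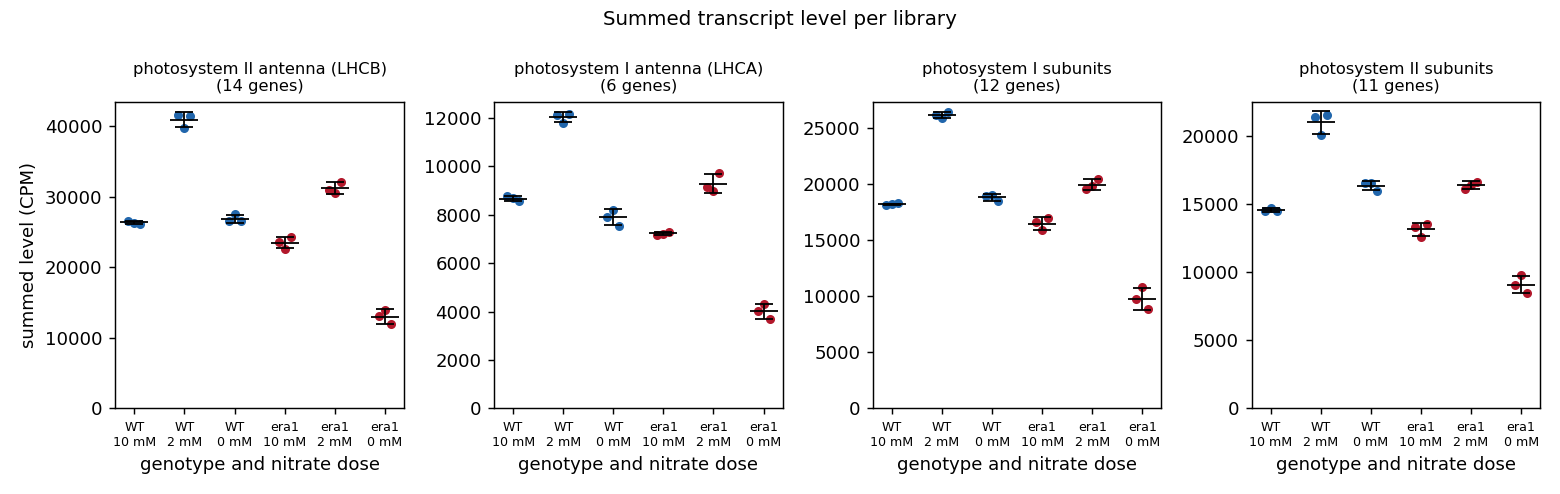
Summed level of each class per library in CPM, by group; points are libraries, and bars are the mean ± SD of 3. In all 4 classes the WT 2 mM libraries are the highest and the era1 0 mM libraries the lowest, as with the LHCB sums of 39729 to 41506 CPM in WT at 2 mM and 11898 to 14000.0 CPM in era1 at 0 mM.

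Without nitrate the genes divided in WT. At 0 against 10 mM 15 were higher, 13 were lower and 15 were not called, against 26.9% higher and 26.7% lower of all genes, shares not far from those of the members. The median was 0.08. Of the 20 antenna genes 9 were lower and 5 higher, and of the 11 photosystem II genes 7 were higher and 2 lower.

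LHCB4.3, a gene for the monomeric antenna protein CP29, had 29.4, 40.0 and 39.8 CPM at 10 mM and 159, 115 and 97.0 CPM at 0 mM in WT. The doses did not overlap, and the log2 fold change was 1.76 ± 0.17 (FDR 8.95e-09). LHCA6, which with LHCA5 joins photosystem I to the NADH dehydrogenase-like complex, had 64.6, 81.2 and 84.5 CPM at 10 mM and 214, 179.8 and 173 CPM at 0 mM (1.3 ± 0.15, FDR 1.01e-07). It too did not overlap between doses.

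Among the photosystem II genes, PSBO2 had 505, 424 and 492 CPM at 0 mM, all above its 10 mM values (1.21 ± 0.28, FDR 7.64e-04). PSBS had 519.9, 549.7 and 565 CPM at 10 mM and 936, 974 and 905 CPM at 0 mM (0.78 ± 0.08, FDR 1.44e-08). For PSBS and LHCA6, all 3 WT libraries at 0 mM lay above the other 15 libraries. PSBQ1 changed by 0.69 ± 0.09, PSBY by 0.65 ± 0.21, LHCB1.3 by 0.62 ± 0.07 and LHCB5 by 0.62 ± 0.07. In photosystem I the higher genes were PSAN (0.41 ± 0.07), PSAH1 (0.36 ± 0.08) and PSAK (0.26 ± 0.07).

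The largest falls were smaller than the largest rises. LHCA1, part of the antenna belt of photosystem I, changed by -0.50 ± 0.07 (FDR 1.11e-06), LHCB1.2 by -0.48 ± 0.05, LHCB1.4 by -0.29 ± 0.07 and LHCB2.2 by -0.29 ± 0.06. PSAE2, a stromal subunit near the ferredoxin site, changed by -0.41 ± 0.06, and PSAO, of the antenna docking site, by -0.31 ± 0.06. PSBO1 (-0.17 ± 0.05) and PSBQ2 (-0.16 ± 0.06) were the lower photosystem II genes. The PSBQ2 call was lost without WT library 1 at 0 mM (-0.13), library 3 at 0 mM (-0.14) or library 2 at 10 mM (-0.13). It was also lost with scaling without the members and organelle genes (-0.13), with no filter (-0.14) and without the 2 mM libraries (-0.15). The PSBO1 call was lost without WT library 2 at 10 mM (-0.14). LHCA5 was called (-0.21 ± 0.09, FDR 0.0388) although its doses overlapped. LHCB4.1 passed narrowly (-0.17 ± 0.07, FDR 0.0398) and was not called without WT library 3 at 0 mM (-0.10 ± 0.07, FDR 0.243) or with DESeq2 (-0.15). It was also not called without WT library 1 at 0 mM or any single WT library at 10 mM (-0.17 to -0.15). Its call was further lost with DESeq2's scaling in edgeR (-0.15), with scaling without the members and organelle genes (-0.13) and with no filter (-0.15).

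Against 2 mM, WT rosettes at 0 mM had lower levels of 36 genes and higher levels of 4, against 22.1% lower and 20.3% higher of all genes, with a median of -0.46. This comparison shares its 2 mM libraries with the first one. LHCB1.4 fell most (-1.73 ± 0.07), followed by LHCB1.2 (-0.97 ± 0.06). LHCB4.3 (2.17 ± 0.18), PSBS (0.83 ± 0.08), LHCA6 (0.62 ± 0.14) and LHCA5 (0.45 ± 0.09) were the 4 higher genes. In photosystem I the leading genes were PSAE2 (-0.76 ± 0.06), PSAD2 (-0.66 ± 0.07) and PSAO (-0.63 ± 0.06). PSBQ1 (-0.19 ± 0.09, FDR 0.11), PSBY (-0.34 ± 0.21, FDR 0.211) and PSBO2 (-0.06 ± 0.27, FDR 0.89) were not called. Without WT library 2 at 2 mM, PSBY (-0.65 ± 0.14, FDR 0.000614) and PSBO2 (-0.45 ± 0.16, FDR 0.0326) were called lower.

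In era1 most of the set was lower without nitrate. At 0 against 10 mM 38 genes were lower and 1 was higher, against 28.0% lower and 27.5% higher of all genes, and the median was -0.78. The class medians were -0.97 for LHCB, -0.67 for LHCA, -0.78 for photosystem I and -0.60 for photosystem II. Whether these medians differ was not tested.

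In era1, LHCB1.4 had 1082, 1034 and 1033 CPM at 10 mM and 219, 228 and 181 CPM at 0 mM. That was a 5.01-fold lower level, with a log2 fold change of -2.33 ± 0.07 (FDR 3.46e-18). LHCB6, which encodes the monomeric antenna protein CP24, changed by -1.32 ± 0.07, and LHCB2.3, of the major trimer, by -1.32 ± 0.10. In the photosystem I antenna the leading genes were LHCA1 (-1.07 ± 0.07), LHCA4 (-0.99 ± 0.06) and LHCA3 (-0.78 ± 0.06). In photosystem I they were PSAD2 (-1.17 ± 0.07), PSAO (-0.97 ± 0.06) and PSAE2 (-0.90 ± 0.06), where PSAD2 encodes a ferredoxin-docking subunit. In photosystem II they were PSBTN (-1.02 ± 0.07), PSBQ1 (-0.97 ± 0.09) and PSBP1 (-0.86 ± 0.06).

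LHCB4.3 was the one higher gene (0.55 ± 0.17, FDR 0.00667). It was not called without era1 library 2 at 0 mM (0.41 ± 0.17, FDR 0.053) or without era1 library 2 at 10 mM (0.38 ± 0.17, FDR 0.0633). LHCA6 (0.02 ± 0.15, FDR 0.917), PSBO2 (-0.13 ± 0.28, FDR 0.708), PSBY (0.11 ± 0.21, FDR 0.67) and PSBS (-0.03 ± 0.08, FDR 0.739) were not called. PSAH1 (-0.20 ± 0.08, FDR 0.0296) overlapped between doses and was not called when libraries were scaled by their totals (-0.08 ± 0.07, FDR 0.376). It was also not called without era1 library 1 at 0 mM (-0.13 ± 0.09, FDR 0.206) or library 3 at 0 mM (-0.12 ± 0.08, FDR 0.199).

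Against 2 mM, era1 at 0 mM had 39 genes lower and 1 higher, against 26.0% lower and 23.7% higher of all genes, with a median of -1.15. LHCB1.4 changed by -3.50 ± 0.07, LHCB1.2 by -1.57 ± 0.06 and LHCB6 by -1.56 ± 0.07. The leading photosystem I genes were PSAD2 (-1.58 ± 0.07), PSAD1 (-1.2 ± 0.07) and PSAE2 (-1.19 ± 0.06), and those of photosystem II were PSBQ1 (-1.33 ± 0.09), PSBQ2 (-1.26 ± 0.06) and PSBTN (-1.26 ± 0.07). LHCB4.3 was again higher (0.95 ± 0.17), while LHCA5, PSBY and PSBS were not called.

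Calls in the 2 genotypes, whose dose comparisons share no library, were set side by side for 0 against 10 mM. Taken singly, 26.9% of all genes were higher and 26.7% lower in WT, and 27.5% higher and 28.0% lower in era1. Joint calls of all genes were not counted, so no background share stands beside the counts that follow. The 13 genes lower in WT were all lower in era1 as well. The 15 genes not called in WT were also all lower in era1. Of the 15 genes higher in WT, 10 were lower in era1, LHCB4.3 was higher, and LHCA6, PSBO2, PSBY and PSBS were not called. The 10 called in opposite directions were LHCB1.3, LHCB5, LHCA2, PSAH1, PSAK, PSAN, PSBQ1, PSBR, PSBW and PSBX. In era1 PSAH1 overlapped between doses, and its call was lost under the alternatives given above. It was also lost with scaling without the members and organelle genes (-0.17) and with only the groups compared (-0.20).

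The interaction term tested this difference directly. It was called lower in era1 for 41 genes and higher for 0, against 19.3% and 15.6% of all genes, with a median of -0.83. LHCA5 (-0.29 ± 0.12, FDR 0.0602) and PSBY (-0.53 ± 0.30, FDR 0.172) were not called. LHCB1.4 had the largest term (-2.04 ± 0.10, FDR 1.03e-13).

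PSBQ1 had the second largest term (-1.67 ± 0.13, FDR 1.25e-09). In WT it had 445, 470.2 and 499.9 CPM at 10 mM and 766, 764 and 757 CPM at 0 mM. In era1 it had 521, 415 and 539 CPM at 10 mM and 248, 289 and 213 CPM at 0 mM. WT libraries thus lay higher without nitrate and era1 libraries lower, with no overlap between doses in either genotype. LHCB2.3 (-1.46 ± 0.14), PSBO2 (-1.35 ± 0.39, FDR 0.00976), LHCA6 (-1.28 ± 0.21) and LHCB4.3 (-1.21 ± 0.24) came next. In photosystem I the leading terms were those of PSAD2 (-1.12 ± 0.10), PSAK (-1.0 ± 0.10) and PSAE1 (-0.92 ± 0.09).

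**Figure D3:**
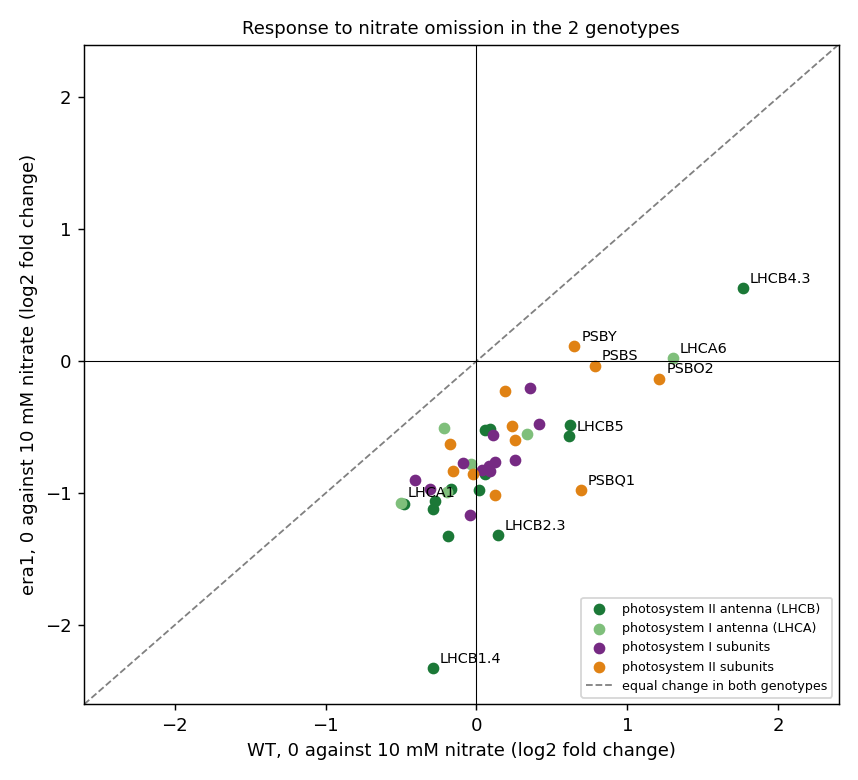
Log2 fold change at 0 against 10 mM nitrate in WT (horizontal) and era1 (vertical) for the 43 genes, coloured by class, with a dashed line of equal change. All points lie below the line, and LHCB1.4, at -0.29 in WT and -2.33 in era1, lies farthest from it.

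The genotypes were then compared at each dose. At 10 mM 19 of 43 genes were lower in era1 and 1 was higher, against 14.3% lower and 15.4% higher of all genes, and the median was -0.14. LHCA1 (-0.49 ± 0.07, FDR 6.33e-06) and LHCB1.4 (-0.48 ± 0.07, FDR 7.32e-06) had the largest negative differences, then LHCB1.2 (-0.32 ± 0.05). In photosystem I the leading genes were PSAE2 (-0.29 ± 0.06), PSAO (-0.23 ± 0.06) and PSAH2 (-0.22 ± 0.07), and in photosystem II PSBQ2 (-0.29 ± 0.06), PSBO1 (-0.24 ± 0.05) and PSBP1 (-0.19 ± 0.06). PSBP1 was not called with library totals (-0.14), without WT library 1 (-0.17) or without era1 library 3 (-0.17).

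LHCB4.3 was the higher gene at 10 mM, with 61.6, 41.6 and 64.0 CPM in era1 against 29.4, 40.0 and 39.8 CPM in WT (0.62 ± 0.18, FDR 0.0128). It was not called without WT library 1 (0.48 ± 0.20, FDR 0.0866), era1 library 1 (0.54 ± 0.21, FDR 0.0619) or era1 library 3 (0.51 ± 0.20, FDR 0.075).

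At 2 mM 37 genes were lower in era1 and 1 was higher, against 11.1% lower and 10.9% higher of all genes, with a median of -0.38. The 12 photosystem I genes were all lower, between -0.49 and -0.28. LHCB1.4 (-0.75 ± 0.07, FDR 1.11e-08) and LHCB2.3 (-0.56 ± 0.10) had the largest negative differences. LHCB4.3 was higher again (0.62 ± 0.20, FDR 0.0222), but not called without WT library 1 (0.50 ± 0.21, FDR 0.116), WT library 3 (0.60), era1 library 2 (0.61) or era1 library 3 (0.63). PSBO2 (-0.20 ± 0.27, FDR 0.655) and PSBY (-0.49 ± 0.21, FDR 0.103) were not called. Without WT library 2, PSBO2 (-0.60 ± 0.16, FDR 0.0111) and PSBY (-0.80 ± 0.14, FDR 0.000216) were called lower.

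At 0 mM all 43 genes were lower in era1, against 24.6% lower and 24.5% higher of all genes. The median was -1.0, and the values ran from -2.51 for LHCB1.4 to -0.49 for LHCA5. LHCB1.4 was 5.71-fold lower, with 1175, 1178 and 1232 CPM in WT and the era1 values given above. PSBQ1 was 3.05-fold lower (-1.61 ± 0.10, FDR 8.32e-13). In the photosystem II antenna LHCB2.3 (-1.52 ± 0.10) and LHCB6 (-1.35 ± 0.07) followed, and in that of photosystem I LHCA6 (-1.24 ± 0.15), LHCA1 (-1.06 ± 0.07) and LHCA3 (-1.0 ± 0.06). The leading photosystem I genes were PSAD2 (-1.29 ± 0.07), PSAE1 (-1.1 ± 0.06) and PSAH2 (-1.1 ± 0.07). PSBTN, a small lumenal subunit of photosystem II, differed by -1.25 ± 0.07.

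The smallest differences at 0 mM were in LHCA5 (-0.49 ± 0.09, FDR 4.86e-05), PSBR (-0.54 ± 0.06) and LHCB4.3 (-0.60 ± 0.16, FDR 0.00292). LHCB4.3 overlapped between genotypes, with 159, 115 and 97.0 CPM in WT and 76.7, 97.2 and 71.2 CPM in era1. Without WT library 1 its difference was -0.38 ± 0.15, FDR 0.0475. The first era1 library at 0 mM was low for PSBY (282, 500.2 and 462 CPM) and PSBO2 (141, 243 and 239 CPM). PSBY (-0.62 ± 0.21, FDR 0.0176) was not called without it (-0.42 ± 0.21, FDR 0.113), while PSBO2 was (-0.99 ± 0.30, FDR 0.00904).

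**Figure D4:**
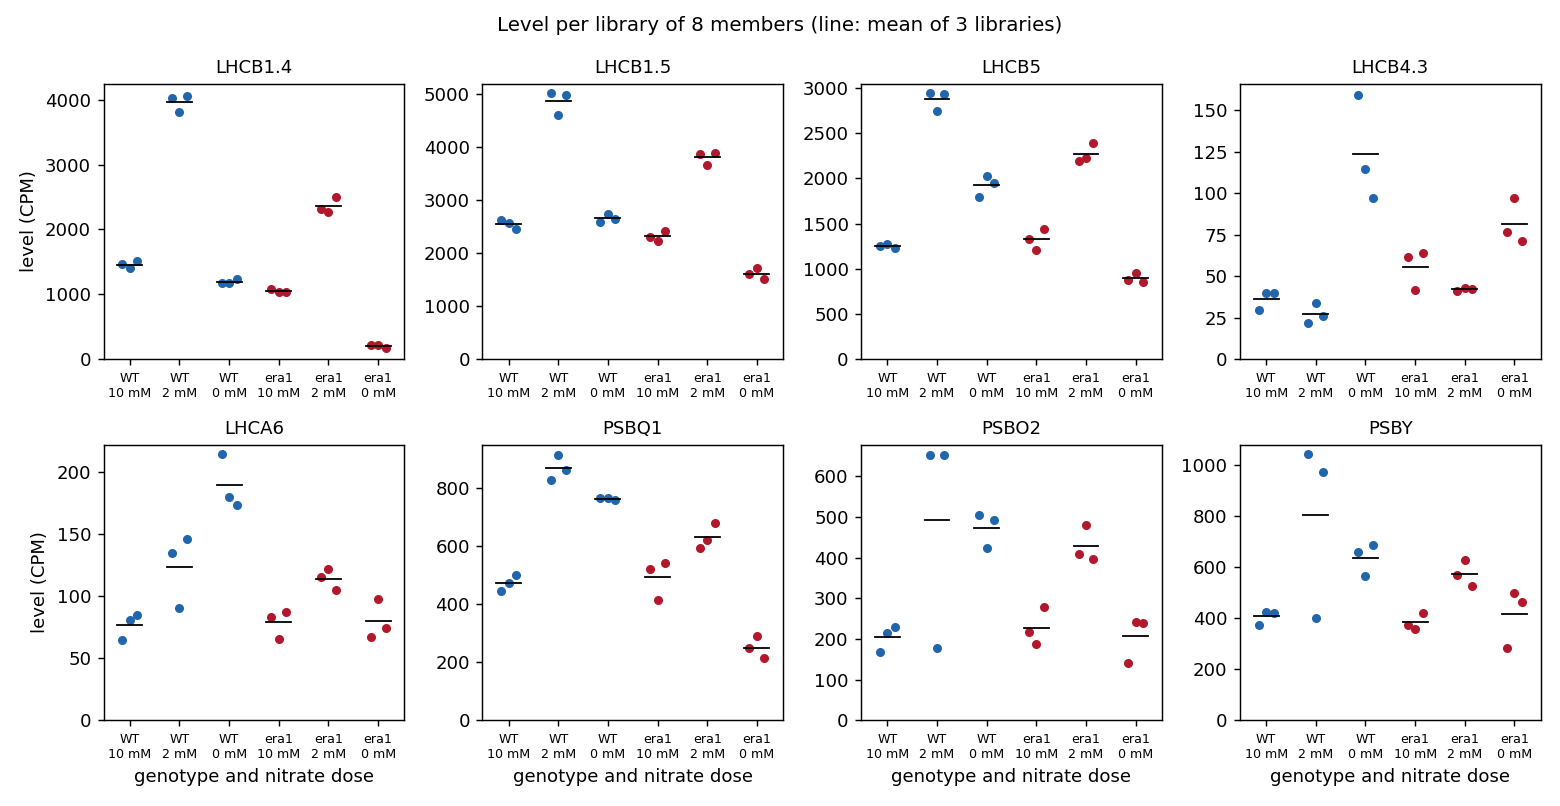
Level per library in CPM of LHCB1.4, LHCB1.5, LHCB5, LHCB4.3, LHCA6, PSBQ1, PSBO2 and PSBY in the 6 groups; points are libraries, lines the mean of 3, and each vertical axis starts at 0. LHCB1.4 runs from a mean of 209 CPM in era1 at 0 mM to 3964 CPM in WT at 2 mM, and single points of PSBO2 and PSBY in WT at 2 mM lie far below the other two.

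The balance between classes was described, without a test, by ratios of summed levels within a library, which do not depend on scaling. In WT the ratio of LHCB to photosystem II genes was 1.81 ± 0.0224, 1.95 ± 0.0305 and 1.64 ± 0.0343 at 10, 2 and 0 mM (SD, n = 3). In era1 it was 1.78 ± 0.0136, 1.90 ± 0.0347 and 1.43 ± 0.0224. Within each genotype the 3 doses did not overlap and stood in the same order. At 0 mM the 3 era1 libraries lay below the 3 of WT. The ratio of LHCA to photosystem I genes was 0.477 ± 0.00749, 0.461 ± 0.00450 and 0.420 ± 0.0119 in WT, and 0.440 ± 0.0142, 0.467 ± 0.0110 and 0.412 ± 0.00975 in era1. At 10 mM the genotypes did not overlap, with 0.469 to 0.484 in WT and 0.431 to 0.456 in era1, while at 2 and 0 mM they did. In both genotypes the 0 mM libraries lay below the 10 mM ones.

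The neighbours LHCB1.4 and LHCB1.5 did not keep a constant ratio. In WT, LHCB1.4 stood at 0.572 ± 0.0353, 0.814 ± 0.0145 and 0.449 ± 0.0178 of LHCB1.5 at 10, 2 and 0 mM. In era1 it stood at 0.453 ± 0.0220, 0.620 ± 0.0218 and 0.130 ± 0.00890. The 3 era1 libraries at 0 mM held 0.120 to 0.137, and the lowest value in any other library was 0.428. LHCB1.5 had 2306, 2236 and 2413 CPM at 10 mM and 1602, 1724 and 1516 CPM at 0 mM in era1, a change of -0.52 ± 0.06, against -2.33 ± 0.07 for LHCB1.4.

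Paralog pairs were compared between doses by their log2 ratio (CPM + 1), with an exact two-sided permutation test that exchanged dose labels within each genotype. Over 8 pairs and 3 dose steps there were 24 comparisons, of which 15 were called after Benjamini-Hochberg adjustment. Ratios of other gene pairs were not tested, so no background share stands beside this count. The smallest p that 400 permutations allow is 0.005, which became 0.012 after adjustment.

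The ratio of LHCB4.1 to LHCB4.3, both genes for CP29, was called at all 3 steps. In WT it was 5.71 ± 0.25, 6.42 ± 0.31 and 3.83 ± 0.29 at 10, 2 and 0 mM, and in era1 4.83 ± 0.40, 5.41 ± 0.04 and 3.31 ± 0.09. From 10 to 0 mM it changed by -1.71 over both genotypes (adjusted p = 0.012, exact permutation test), and in 6 of 6 libraries at 0 mM it lay beyond all of its genotype's 10 mM libraries. LHCB4.1 and LHCB4.2 kept closer to each other, with a shift of 0.14 between 2 and 0 mM (adjusted p = 0.012) and no call at the other steps.

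LHCB2.1 gained on LHCB2.2, another gene of the major trimer, as nitrate was lowered. The log2 ratio was 0.01 ± 0.02, 0.26 ± 0.00 and 0.39 ± 0.03 in WT at 10, 2 and 0 mM, and 0.19 ± 0.06, 0.28 ± 0.02 and 0.80 ± 0.06 in era1. All 3 steps were called, with a shift of 0.50 between 10 and 0 mM (adjusted p = 0.012). LHCB2.2 shared 17.9% of the 50-base words in its last 300 transcript bases with LHCB2.1, and reads that fall there have no unique place.

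In photosystem I, PSAH1 gained on PSAH2 by 0.43 between 10 and 0 mM (adjusted p = 0.012; 0.28 in WT and 0.59 in era1) and by 0.30 between 10 and 2 mM (adjusted p = 0.012). PSAD1 gained on PSAD2 by 0.21 (adjusted p = 0.0218) and PSAE1 on PSAE2 by 0.28 (adjusted p = 0.0369) between 10 and 0 mM. These pooled shifts were uneven between genotypes, and that unevenness was not tested. PSAD1/PSAD2 moved by 0.08 in WT and 0.34 in era1. PSAE1/PSAE2 moved by 0.49 in WT and 0.06 in era1. All 6 genes encode subunits on the stromal or antenna-docking side of the complex.

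In photosystem II, PSBO2 gained on PSBO1. The log2 ratio of PSBO1 to PSBO2 changed by -0.87 between 10 and 2 mM (adjusted p = 0.048) and by -0.93 between 10 and 0 mM (adjusted p = 0.03). The latter shift was -1.39 in WT and -0.47 in era1. Without WT library 2 at 2 mM the first shift was -1.17. The ratio of PSBQ1 to PSBQ2 was not called at any step. Between 10 and 0 mM it moved by 0.85 in WT and by -0.14 in era1 (p = 0.085 before adjustment, exact permutation test over both genotypes).

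**Figure D5:**
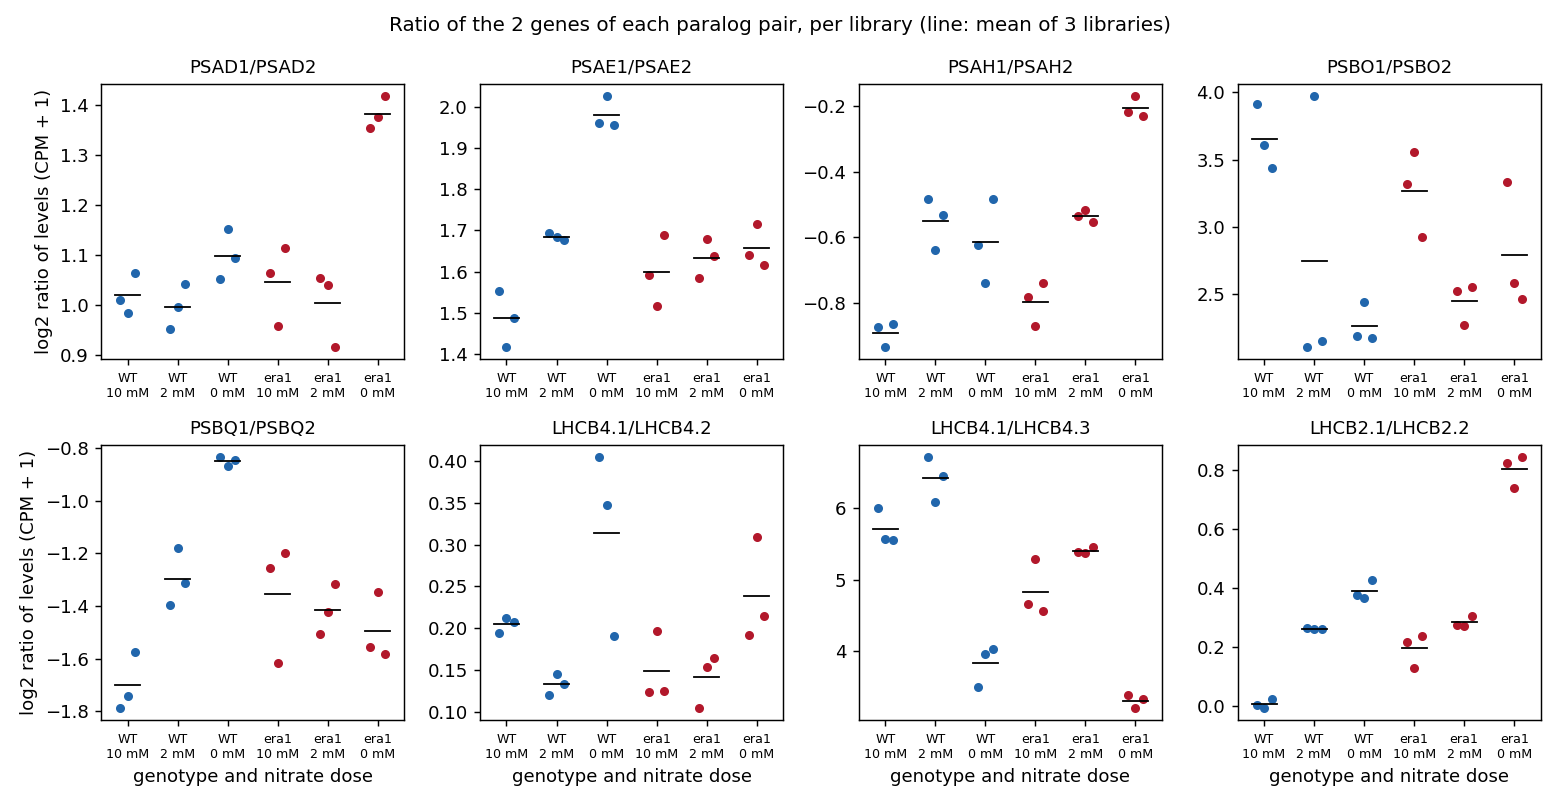
Log2 ratio of levels (CPM + 1) within 8 paralog pairs, per library; points are libraries, lines the mean of 3. The LHCB4.1/LHCB4.3 ratio is lowest at 0 mM in both genotypes, and LHCB2.1/LHCB2.2 is highest in era1 at 0 mM.

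The other nuclear genes of photosynthetic electron transport were read from separate lists. Of 8 genes for the cytochrome b6f complex and the soluble electron carriers, 5 were higher and 1 was lower in WT at 0 against 10 mM, and 0 were higher and 5 lower in era1. Of all genes, 26.9% were higher and 26.7% lower in WT, and 27.5% higher and 28.0% lower in era1. Between genotypes at 0 mM 7 of 8 were lower in era1 and 0 were higher, against 24.6% and 24.5% of all genes. FD2, the main leaf ferredoxin, averaged 2294 ± 219 CPM in WT and 949.7 ± 71.5 CPM in era1 at 0 mM (-1.27 ± 0.09, FDR 6.91e-12). PETE2, a plastocyanin gene, differed by -1.13 ± 0.06, and the ferredoxin gene FD1 was not called (-0.08 ± 0.08, FDR 0.408).

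Of 4 genes for the chloroplast ATP synthase 3 were lower in era1 at 0 mM and 0 were higher, against the same 24.6% and 24.5% of all genes. ATPD, its delta subunit, differed by -1.51 ± 0.17, FDR 9.94e-08. Like PSBO2, ATPD was low in WT library 2 at 2 mM, with 756, 436 and 760.0 CPM. Of 6 genes for state transitions and cyclic electron flow 1 was higher and 3 were lower in the same comparison, with a median of -0.06, against 24.5% higher and 24.6% lower of all genes.

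Of 7 regulators of photosynthesis genes, 6 were higher and 1 was lower in WT at 0 against 10 mM, where 26.9% of all genes were higher and 26.7% lower. In era1 3 were higher and 3 lower, against 27.5% and 28.0% of all genes. GLK1 and GLK2 are transcription factors that activate antenna genes. GLK1 had 73.2, 78.4 and 64.5 CPM in WT at 10 mM and 173, 224 and 224 CPM at 0 mM (1.52 ± 0.10, FDR 8.44e-12). In era1 it had 124, 139 and 133 CPM at 10 mM and 170.1, 172 and 182 CPM at 0 mM (0.40 ± 0.09, FDR 6.68e-04). GLK2 changed by 0.84 ± 0.10 in WT and was not called in era1 (0.20 ± 0.10, FDR 0.103). The interaction term of GLK1 was negative (-1.12 ± 0.13, FDR 5.38e-07). Over the 7 regulators that term was called lower in era1 for 4 and higher for 2, against 19.3% and 15.6% of all genes. GUN4, which promotes chlorophyll synthesis, changed by 0.66 ± 0.09, FDR 6.85e-07 in WT and by -0.44 ± 0.09, FDR 1.45e-04 in era1. CGA1 and the light-signalling factor HY5 rose in both genotypes. CGA1 changed by 1.62 ± 0.17 in WT and 2.71 ± 0.19 in era1, with a positive interaction term (FDR 0.00318). HY5 changed by 1.37 ± 0.12 in WT and 2.27 ± 0.11 in era1.

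Between genotypes at 0 mM 5 of the 7 regulators were lower in era1 and 1 was higher, against 24.6% and 24.5% of all genes. GUN4 differed by -1.05 ± 0.09, FDR 3.07e-10, and the GATA factor GNC by -0.72 ± 0.08. GLK2 differed by -0.58 ± 0.10 and GLK1 by -0.25 ± 0.09, FDR 0.0277. GLK1 was not called with library totals (-0.05), nor without WT library 2 (-0.19), WT library 3 (-0.19), era1 library 1 (-0.24) or era1 library 2 (-0.23). HY5, a light-signalling factor, was the higher one, with 79.5 ± 5.77 CPM in era1 and 40.1 ± 2.17 CPM in WT (0.99 ± 0.10, FDR 6.16e-09).

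Clock genes moved with the nitrate dose in both genotypes. LHY, a morning gene, averaged 477 ± 15.5, 29.4 ± 4.48 and 740.0 ± 13.1 CPM in WT at 10, 2 and 0 mM. In era1 it averaged 432 ± 42.8, 35.9 ± 1.15 and 723 ± 22.6 CPM. The evening gene TOC1 ran the other way in WT, with 7.82 ± 1.34, 25.7 ± 1.41 and 4.83 ± 1.29 CPM. In era1 it rose at 2 mM (2.15 ± 0.15) and was not called at 0 against 10 mM (0.03 ± 0.19, FDR 0.909). CCA1, the partner of LHY, changed by -2.73 ± 0.10 in WT and -2.79 ± 0.10 in era1 at 2 against 10 mM, and by 1.26 ± 0.07 and 1.5 ± 0.07 at 0 against 10 mM. Dose and hour of harvest cannot be told apart here, and the part of either in the dose comparisons was not tested. Between genotypes at 0 mM, LHY was not called (-0.03 ± 0.07, FDR 0.724) and CCA1 differed by 0.18 ± 0.07, FDR 0.0396. The CCA1 call was lost with DESeq2 (0.16), its scaling in edgeR (0.16), scaling without the members and organelle genes (0.16) and no filter (0.17). It was also lost with only the groups compared (0.16) and without the 2 mM libraries (0.17). Of single libraries at 0 mM, leaving out WT library 1 (0.14) or 2 (0.17) or era1 library 1 (0.19) or 2 (0.13) lost it. So did leaving out WT library 2 at 10 mM (0.17) or WT library 1 (0.17) or 3 (0.17) at 2 mM.

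Reads that aligned to several places were also more frequent at the lower doses. They averaged 2.15% of read records in WT and 2.52% in era1 at 10 mM, and 4.72% to 4.97% in the other 4 groups. Such reads were left out of the gene counts, and their part in the dose comparisons was not tested. LHCB1.2 shared 6.38% of its 3′ words with LHCB1.1 and LHCB1.3, and the 41 members other than LHCB1.2 and LHCB2.2 shared none of theirs. Only exact 50-base words in the last 300 bases of each member's longest annotated transcript were searched. The shared words also occur in LHCB1.1, LHCB1.3 and LHCB2.1, outside that window, and reads that fall there have no unique place either. Loss of shared reads outside the window was not measured. On the other strand, 16 members overlap an annotated gene, and PSAD2 and PSBP1 overlap one on their own strand. Counts of these members are uncertain, since the strand setting of the counting is not known.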

How the data were processed

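Polyadenylated RNA was turned into single-end, stranded QuantSeq 3′ libraries, per the labels' protocols. Per the submitters' processing notes, TopHat2 and TAIR10 were used. Versions, annotation and the counter's strand setting are not known here. The authors deposited raw counts per gene and library, with 5 summary counters that entered neither library sizes nor tests. By group mean, reads outside genes made up 3.95% to 5.43% of read records and reads without a unique alignment 2.15% to 4.97%.

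Counts were fitted in edgeR 4.0.16 (R 4.3.3) with TMM scaling and filterByExpr (minimum count 10, minimum total 15), in a quasi-likelihood model of 6 groups over 18 libraries with 11 contrasts. P-values were adjusted by Benjamini-Hochberg over 18358 genes per contrast. Within groups, chi-square per degree of freedom between pairs of libraries ran from 1.50 to 4.44. Replicate numbers did not pair samples: over 45 pairs of same-numbered libraries, the correlation of deviations ran from -0.10 to 0.14. The members and lists were chosen with earlier results of these data known. The named-gene rule takes the 3 called members with the largest change per class and contrast, called members that go against their class, paralog pairs, the 3 leading electron-transport genes and regulators, ERA1, the labelled locus, CCA1, LHY, GLK1 and GLK2. Not all of these are printed, and other members were named after their values were seen. Promoters came from RefSeq TAIR10.1 at its own annotation. Only the edgeR fit was tested on simulated counts, for the contrast of era1 against WT at 0 mM. Alternatives were DESeq2 1.42.0, its scaling, library totals, scaling without the members and organelle genes, no filter and a replicate block. Others were only the groups compared, a fit without the 2 mM libraries, and each library left out.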

Additional observations from a re-analysis of the deposited data

Results flagged for a closer look

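The response to nitrate differed between the genotypes for many members by a test of the difference itself, edgeR's interaction term. Values are era1 minus WT log2 fold changes, and a negative value means a lower response in era1. For 2 against 10 mM the named genes were LHCB2.3 (-0.50), LHCB5 (-0.42), LHCB1.3 (-0.37), LHCA2 (-0.41), PSAF (-0.42), PSAN (-0.41), PSAK (-0.32), PSBQ1 (-0.52), PSBW (-0.34), PSBR (-0.26) and LHCB2.1 (-0.25). Of these, 4 lost their call under some alternatives. LHCB2.1 and PSBR lost it with library totals (-0.21 and -0.22), with scaling that left out the members and organelle genes (-0.22 and -0.23) and with no filter (-0.21 and -0.23). Both also lost it without any single one of WT library 1 at 0 mM, WT libraries 1 or 2 at 10 mM, WT libraries 1 or 3 at 2 mM, era1 library 1 at 0 mM, era1 libraries 1 or 3 at 10 mM and era1 libraries 2 or 3 at 2 mM (-0.25 to -0.21 and -0.26 to -0.22), and PSBR also without WT library 3 at 10 mM. PSAK lost it without any single one of WT libraries 1 or 2 at 10 mM, WT libraries 1 or 3 at 2 mM, era1 library 1 at 0 mM, era1 libraries 1 or 3 at 10 mM and era1 library 1 at 2 mM (-0.31 to -0.26), and LHCB1.3 without WT library 1 at 2 mM (-0.32).

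For 0 against 10 mM the terms were larger. In the antenna they were LHCB1.4 (-2.04), LHCB2.3 (-1.46), LHCB4.3 (-1.21), LHCA6 (-1.28), LHCA2 (-0.89), LHCA4 (-0.80), LHCB2.1 (-0.60), LHCB2.2 (-0.83), LHCB4.1 (-0.80) and LHCB4.2 (-0.78). In photosystem I they were PSAD2 (-1.12), PSAK (-1.0), PSAE1 (-0.92), PSAD1 (-0.86), PSAE2 (-0.49), PSAH1 (-0.56) and PSAH2 (-0.88). In photosystem II they were PSBQ1 (-1.67), PSBO2 (-1.35), PSBTN (-1.14), PSBO1 (-0.46) and PSBQ2 (-0.67). All of these had negative terms, and 19.3% of all genes tested had a term called lower.

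Reads without a unique alignment lie outside the gene counts. Their share was higher than at 10 mM in the other groups, with 4.88% in WT at 2 mM, 4.97% in WT at 0 mM, 4.72% in era1 at 2 mM and 4.74% in era1 at 0 mM. These reads were not analysed further.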

How the results depend on the processing

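Of 12 counts, 10 stayed within 1.5 times their value under the alternatives run. The count of members whose step from 10 to 2 mM differed between genotypes was 14, became 9 with no filter on low counts, and ran from 7 to 18 when single libraries were left out. The count of called paralog ratios was 15 and ran from 11 to 17 without single libraries. With the replicate number as a block it was 0. Sign flips of same-numbered pairs allow fewer arrangements than the permutations, so the smallest p they can reach is larger. After adjustment, no ratio could be called unless most of the comparisons reached that smallest p. The loss of all 15 calls therefore does not show whether the ratios depend on the block. In edgeR the replicate block moved none of the other counts by over 1.5 times, and the replicate numbers pair no samples. Of 320 named gene values 0 reversed, and 24 lost their call under at least 1 alternative. Scaling by library totals moved the median of all genes by 0.19 for era1 against WT at 0 mM, 0.16 for era1 at 0 against 2 mM, 0.15 for the genotype difference in the response to 0 mM and 0.12 for era1 at 0 against 10 mM (log2). Fold changes are relative to a TMM scale on which that median is near 0. Each group held 3 libraries, which limits small differences.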
